A study of Mus musculus with 12 samples.

Results

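The 10 genes described here encode contents of the cytotoxic granules of T cells, and an inhibitor of a granzyme. They comprise the granzymes Gzma, Gzmb, Gzmc, Gzmd, Gzme, Gzmf and Gzmk, the pore-forming protein gene Prf1, the granzyme inhibitor gene Serpinb9 and the granule proteoglycan gene Srgn. They were taken by symbol from a table of 53762 gene symbols, and all 10 were found. RNA had been sequenced from mouse T cells (tissue label spleen) after co-culture with cells named Res, and the stated aim was to find T cell genes that differ with the state of the Res cells. The 4 groups of 3 libraries each were T cells with Res_shFabp7 partners at 24 h, with Res_ctrl partners at 24 h, with Res_shFabp7 partners at 48 h and with Res_ctrl partners at 48 h. The shFabp7 name denotes a short hairpin RNA against Fabp7, a fatty acid binding protein gene, in the partner cells and not in the T cells. The identity and species of the Res cells, the number of hairpins or clones behind them, the age and strain of the mice, and any sorting or stimulation of the T cells are not stated in the labels.

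Cytotoxic T cells kill by releasing granules towards a target cell. Perforin, the Prf1 product, opens pores in the target membrane, and granzymes are serine proteases that enter through them and cleave proteins that lead to cell death. Serglycin, the Srgn product, is a proteoglycan whose negatively charged sugar chains hold granzymes and perforin in the granule, and the Serpinb9 product is a serpin that inhibits granzyme B and protects the cell that makes it. Resting T cells hold little granzyme B, and its messenger accumulates after activation, mostly in CD8 T cells but also in activated CD4 T cells.

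Library totals ranged from 31952873 to 40638685 counts, and 16945 genes passed the filter on low counts and were tested. Fabp7 itself had 0 counts in 9 libraries and 3, 1 and 1 counts in the control partner libraries at 48 h, so the T cell libraries do not check the hairpin. Whether RNA of the partner cells was carried into these libraries was not tested, and the counts per gene do not separate it from T cell RNA. Replicates of a group differed by more than counting noise, with a chi-square per degree of freedom of 4.34 to 14.2 between pairs. Control partner replicate 1 at 48 h stood apart, at 13.7 and 14.2 from the other replicates of its group, against 5.41 between those. At 24 h, control partner replicates 2 and 3 differed by 13.9. Levels are CPM (counts scaled to a common library size) after TMM scaling and are given per library in replicate order 1 to 3. Differences are log2 fold changes ± SE from edgeR's quasi-likelihood test with p-values adjusted by Benjamini-Hochberg over all genes tested, with a threshold of 0.05. Whether the replicates are independent cultures or animals is not stated in the labels. A p-value here therefore reflects the spread of libraries within groups, which may be technical. For each gene that spread was pooled over the 4 groups and drawn towards that of other genes. RNA was measured in bulk, so fewer cells of a type and less RNA per cell cannot be told apart.

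With the shFabp7 partner, the messengers of granzyme B, perforin and the granzyme B inhibitor Serpinb9 were each higher at 48 h, by 1.36-fold, 1.49-fold and 1.40-fold. Granzyme B was already 1.19-fold higher at 24 h, whereas the messenger of serglycin passed the test at neither time. Between 24 and 48 h, Gzmb and Gzmc levels rose 7.90-fold to 9.94-fold across the partners, and Gzmk fell. Gzmd, Gzme and Gzmf, which entered the test through their 48 h counts, had 0 to 5 counts per library at 24 h and 10 to 53 at 48 h.

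**Figure D1:**
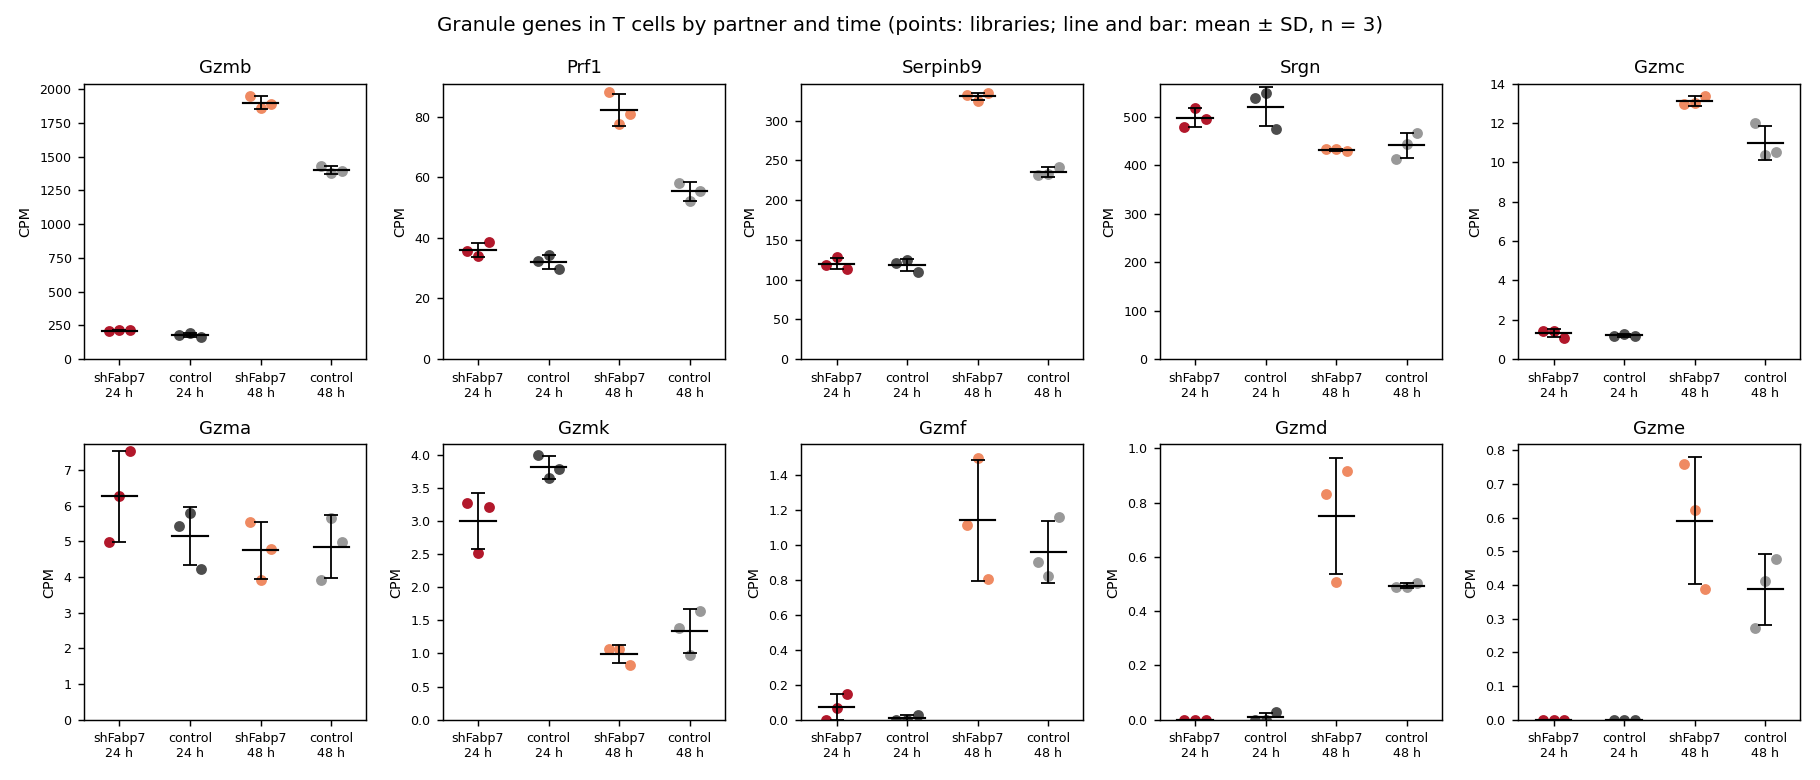
CPM of each of the 10 genes in each of the 12 libraries, with 1 panel per gene, points for libraries and bars for group means, the shFabp7 partner left of the control partner at each time. At 48 h the Gzmb, Prf1 and Serpinb9 points of the shFabp7 partner lie above every control partner point, while the Srgn points interleave.

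Gzmb, which encodes the granzyme that cleaves and activates caspases, had 208, 214 and 212 CPM at 24 h with the shFabp7 partner, against 175, 193 and 164 CPM with the control partner. The lowest library of the shFabp7 partner was above the highest of the control partner, and the difference passed the test (log2 fold change 0.25 ± 0.05, adjusted p = 0.00317). At 48 h the libraries held 1952, 1862 and 1887 CPM with the shFabp7 partner, against 1433, 1376 and 1395 CPM with the control partner. The groups again did not overlap, and the difference was 0.44 ± 0.05 on the log2 scale (adjusted p = 8.6e-08). The 48 h effect minus the 24 h effect was 0.19 ± 0.08, which missed the threshold after adjustment (adjusted p = 0.152), so a larger effect at 48 h was not shown for Gzmb. Without control partner replicate 1 at 48 h, which stood apart from its group, the 48 h differences were 0.46 ± 0.05 for Gzmb, 0.61 ± 0.07 for Prf1 and 0.48 ± 0.05 for Serpinb9, and all 3 still passed (adjusted p = 1.4e-08, 5.9e-09 and 7.1e-09).

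Prf1, the perforin gene, had 35.7, 34.1 and 38.6 CPM at 24 h with the shFabp7 partner, against 32.5, 34.3 and 29.7 CPM with the control partner. These groups overlapped, and the log2 difference of 0.17 ± 0.07 missed the threshold (adjusted p = 0.107). With DESeq2 in place of edgeR it passed (adjusted p = 0.0423), and it also passed without control partner replicate 2 at 24 h (adjusted p = 0.0272). At 48 h Prf1 had 88.0, 77.6 and 80.7 CPM with the shFabp7 partner, against 58.2, 52.2 and 55.5 CPM with the control partner. Every library of the shFabp7 partner was then higher (log2 fold change 0.57 ± 0.06, adjusted p = 1.5e-08). The partner effect on Prf1 was larger at 48 h than at 24 h by 0.40 ± 0.09 (adjusted p = 0.00762). That difference between times missed the threshold without shFabp7 partner replicate 1 at 24 h (adjusted p = 0.0507), replicate 2 at 24 h (adjusted p = 0.094) or control partner replicate 2 at 24 h (adjusted p = 0.0861).

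Serpinb9 had 119, 128 and 114 CPM at 24 h with the shFabp7 partner, against 120.4, 124 and 109.5 CPM with the control partner. The libraries were intermixed, and the log2 difference was 0.02 ± 0.05 with a 95% interval of -0.08 to 0.13 (adjusted p = 0.829). Serpinb9 at 48 h reached 332, 325 and 334 CPM with the shFabp7 partner, against 231, 232 and 242 CPM with the control partner. All 3 libraries of the shFabp7 partner were higher (0.49 ± 0.05, adjusted p = 9.2e-09), and the partner effect was larger at 48 h than at 24 h by 0.47 ± 0.08 (adjusted p = 3.5e-04).

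Srgn, the scaffold on which the granule contents are packed, had 479.9, 519 and 496 CPM at 24 h with the shFabp7 partner, against 539.6, 549 and 475 CPM with the control partner. The 48 h values were 433, 434 and 429.9 CPM with the shFabp7 partner, against 414, 444 and 466 CPM with the control partner. The groups overlapped at both times. The log2 differences were -0.06 ± 0.06 at 24 h (adjusted p = 0.511) and -0.03 ± 0.06 at 48 h (adjusted p = 0.744). The 95% interval at 48 h ran from -0.14 to 0.08, which lies below the lower bounds of 0.34, 0.45 and 0.39 for Gzmb, Prf1 and Serpinb9.

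**Figure D2:**
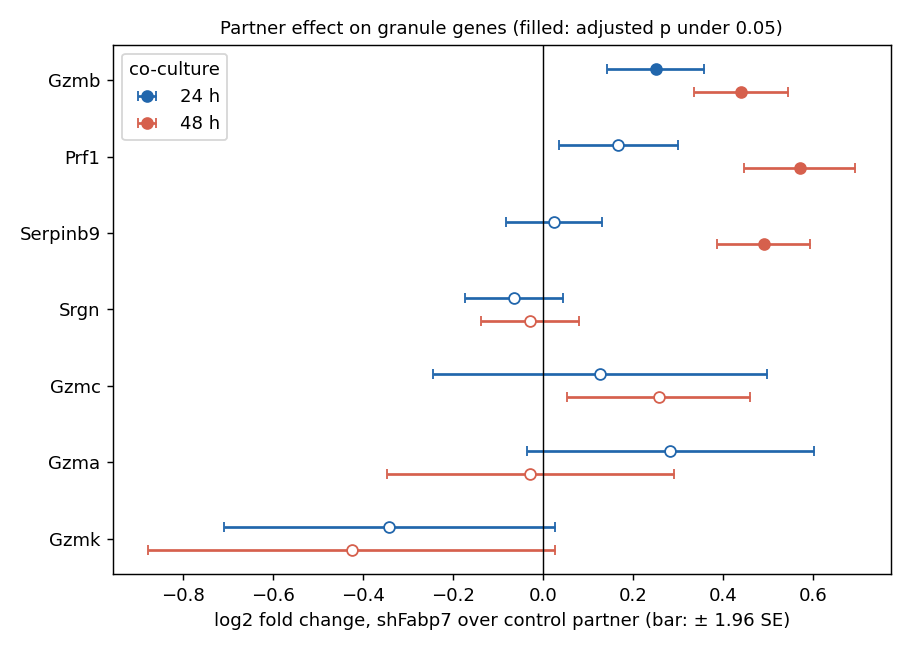
Log2 fold changes of the shFabp7 over the control partner at 24 h and at 48 h for 7 of the genes, with points for the estimates and bars for the 95% intervals. Gzmb, Prf1 and Serpinb9 at 48 h lie between 0.44 and 0.57, Srgn lies near 0 at both times, and Gzmk lies below 0 with intervals that reach 0.

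Gzma, which encodes a granzyme with trypsin-like specificity, was low and did not pass the partner test at either time. It had 5.00, 6.27 and 7.54 CPM at 24 h with the shFabp7 partner, against 5.44, 5.80 and 4.24 CPM with the control partner (log2 difference 0.28 ± 0.16, adjusted p = 0.289). The 48 h libraries had 5.53, 3.93 and 4.80 CPM with the shFabp7 partner, against 3.92, 5.66 and 4.99 CPM with the control partner (-0.03 ± 0.16, adjusted p = 0.923). The groups overlapped at both times.

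Gzmk, another trypsin-like granzyme, is known from T cells with a memory phenotype. It had 3.27, 2.51 and 3.22 CPM at 24 h with the shFabp7 partner, against 4, 3.65 and 3.78 CPM with the control partner. The shFabp7 libraries were all lower, yet the log2 difference of -0.34 ± 0.19 missed the threshold (adjusted p = 0.264). At 48 h it had 1.07, 1.07 and 0.832 CPM with the shFabp7 partner, against 1.39, 0.978 and 1.64 CPM with the control partner (-0.42 ± 0.23, adjusted p = 0.168). These groups overlapped. Gzmk overlaps Esm1, a gene on the opposite strand with 25 to 76 counts per library, and the strand mode of the counting was not given, so some of the Gzmk counts may belong to that gene.

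Gzmc, the neighbour of Gzmb in the genome, encodes a granzyme that is made late after activation in mouse T cells. It had 1.44, 1.44 and 1.08 CPM at 24 h with the shFabp7 partner, against 1.17, 1.28 and 1.17 CPM with the control partner (0.13 ± 0.19, adjusted p = 0.74). At 48 h it had 12.9, 13 and 13.4 CPM with the shFabp7 partner, against 12, 10.4 and 10.6 CPM with the control partner. The 48 h groups did not overlap, and the log2 difference of 0.26 ± 0.10 was just short of the threshold (adjusted p = 0.0576). It passed with RLE scaling (adjusted p = 0.0467), with the 48 h groups fitted alone (adjusted p = 0.0484) and without control partner replicate 1 at 48 h (adjusted p = 0.0305).

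Gzmb, Gzmc, Gzmd, Gzme and Gzmf belong to 1 cluster on chromosome 14. In the GRCm38 annotation they lie on the minus strand in the order Gzme, Gzmd, Gzmg, Gzmn, Gzmf, Gzmc and Gzmb. Gzma, Gzmk and Serpinb9 are on chromosome 13, and Prf1 and Srgn are on chromosome 10. The promoters of Gzmb, the most abundant granzyme messenger, and of Gzmd and Gzme, the most alike pair, are shown to compare cluster genes whose counts were all higher at 48 h. Each sequence is the 250 bases before the RefSeq start site of build GRCm38.p6, read 5′ to 3′ on the minus strand, at chr14:56262335-56262584 for Gzmb, chr14:56132594-56132843 for Gzmd and chr14:56120626-56120875 for Gzme. Capitals mark matches to TGTGGTT (a RUNX site, read as AACCACA where it is on the other strand) and to TGANTCA (an AP-1 site).
Gzmb: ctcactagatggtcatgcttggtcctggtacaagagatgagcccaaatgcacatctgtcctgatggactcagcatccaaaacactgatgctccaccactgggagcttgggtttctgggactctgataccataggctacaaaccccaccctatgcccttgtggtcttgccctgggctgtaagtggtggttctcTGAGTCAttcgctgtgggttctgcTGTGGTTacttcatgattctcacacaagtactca
Gzmd: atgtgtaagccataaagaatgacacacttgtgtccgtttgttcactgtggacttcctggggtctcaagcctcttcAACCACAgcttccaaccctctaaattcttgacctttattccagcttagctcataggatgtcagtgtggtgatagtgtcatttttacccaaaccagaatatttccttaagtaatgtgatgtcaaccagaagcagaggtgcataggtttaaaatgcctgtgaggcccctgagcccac
Gzme: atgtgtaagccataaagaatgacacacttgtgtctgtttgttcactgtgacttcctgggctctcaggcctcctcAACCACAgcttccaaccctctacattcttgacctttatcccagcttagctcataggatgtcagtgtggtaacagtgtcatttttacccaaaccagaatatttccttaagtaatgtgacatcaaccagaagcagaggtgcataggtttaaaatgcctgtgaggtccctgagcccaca
The Gzmd and Gzme promoters were 94.8% identical (238 of 251 aligned positions), and Gzmc was 80.5% identical to Gzmd and 80.9% to Gzme. Gzmf was 74.5% identical to Gzmd, whereas Gzmb was only 44.1 to 48.2% identical to the 4 others. Gaps were allowed and no unrelated promoters were aligned, so the identity that unrelated promoters would reach is not known here. In Gzmb the RUNX letters started at position -34 and the AP-1 letters at position -58, counted from the start site. In Gzmc, Gzmd, Gzme and Gzmf the RUNX letters started at positions -175, -175, -176 and -196, and none of these 4 held the AP-1 letters. The RUNX letters were found in the 250 bases of 7 of the 10 genes (Gzma, Gzmb, Gzmc, Gzmd, Gzme, Gzmf and Srgn), against 4.4% of 32851 promoters of the same length, but the cluster genes share ancestry and are not independent.

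Of the other motifs searched on both strands, TGANTCA was in 6.75% of all promoters and, among the 10 genes, in Gzmb. GGAAAA (an NFAT core, 20.4% of all promoters) was in Gzma, Serpinb9 and Srgn, and GGTGTGA (a T-box site, 3.33%) in Gzmk. TATAAA (the core promoter box, 12.4%) was in 1 of the Srgn promoters, and TTCNNNGAA (a STAT-type GAS element, 7.02%) was in none of the 10 genes. The Prf1 promoter held none of the 6 motifs. No match overlapped another. These are matches of letters and not measured binding sites.

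Gzmd, Gzme and Gzmf encode granzymes for which few substrates are known, and they were at or near 0 counts at 24 h. At 24 h Gzmd had no counts with the shFabp7 partner, and 0, 0 and 1 with the control partner. Its 48 h counts were 35, 18 and 33 with the shFabp7 partner, against 18, 19 and 20 with the control partner. In CPM these were 0.831, 0.509 and 0.915 with the shFabp7 partner, against 0.491, 0.489 and 0.504 with the control partner, and the groups did not overlap although the difference missed the threshold (0.60 ± 0.41, adjusted p = 0.28).

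Gzme had 0 counts in all 6 libraries at 24 h. At 48 h it had 32, 22 and 14 counts with the shFabp7 partner, against 10, 16 and 19 counts with the control partner, and the libraries overlapped (0.60 ± 0.46, adjusted p = 0.343). Gzmf had 0, 2 and 5 counts with the shFabp7 partner at 24 h, against 0, 0 and 1 counts with the control partner. Gzmf at 48 h had 47, 53 and 29 counts with the shFabp7 partner, against 33, 32 and 46 counts with the control partner, also with overlap (0.24 ± 0.36, adjusted p = 0.657). Partner differences in these 3 genes were not detectable at this depth.

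The counts of the cluster genes are uncertain for another reason. Of the stretches of 50 bases in Gzmd transcripts, 21.9% also occurred in transcripts of another gene, and this share was 20.6% for Gzme, 7.36% for Gzmf, 4.14% for Gzmc and 0 for Gzmb. With stretches of 75 bases the shares were 5.73% for Gzmd and 4.75% for Gzme, and 0 for the other 3. Read length and the handling of reads with several matches were not given, so reads of Gzmd and Gzme may have been exchanged or dropped. Gzmf also overlaps an antisense gene, Gm4022, which had 0 to 11 counts per library.

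Read against all genes, the count of partner effects among the 10 genes was modest at 24 h. There 1 of the 10 was higher and none was lower, against a background of 10.9% of all genes called in either direction with 6.22% called higher and 4.65% called lower. At 48 h, 3 of the 10 were higher and none lower. Over all genes 31.6% were called in either direction, 19.9% higher and 11.6% lower, so the count over the 10 is not far from the background. Without adjustment 3 genes at 24 h and 4 at 48 h were higher and none was lower (p under 0.05), against 13.6% and 24.1% of all genes higher by the same rule. Of the 3 at 24 h, Gzmf rests on 7 counts against 1. DESeq2 called 2 and 3 higher and none lower, against 10.9% and 21.1% of all genes called higher. Libraries of the partners did not overlap for 2 of the 10 at 24 h and 5 of the 10 at 48 h, against 27.5% and 44% of all genes. The balance of the background depends on the scaling of the libraries, since 57.2% of the calls over all genes at 24 h were higher with TMM, 71.9% with RLE, 42.1% with upper-quartile scaling and 33.2% with library totals. At 48 h these shares were 63.2% with TMM, 39.9% with upper-quartile scaling and 40.5% with library totals, and the calls of Gzmb, Prf1 and Serpinb9 at 48 h passed under each of these. The difference between the times passed for 2 of the 10, both larger at 48 h, against 5.6% of all genes with 4.43% larger and 1.17% smaller at 48 h. For Gzma, Gzmc, Gzmk and Srgn that difference was -0.31 ± 0.23, 0.13 ± 0.22, -0.08 ± 0.29 and 0.04 ± 0.08, and none passed (adjusted p = 0.516, 0.811, 0.926 and 0.869). Gzmd, Gzme and Gzmf had few or no counts at 24 h, so they had little room to pass there or in the difference. Of the other 7 genes, 1 was higher at 24 h, 3 at 48 h and 2 in the difference, and none was lower. The shares of all genes called higher were 6.22%, 19.9% and 4.43%. Libraries of the partners did not overlap for 2 of these 7 at 24 h and 4 at 48 h, against 27.5% and 44% of all genes. The median log2 fold change of the 7 was 0.13 at 24 h and 0.26 at 48 h, beside -0.00 and 0.01 over all genes.

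The comparisons of time use the same 12 libraries as those of the partner. Gzmb reached a mean of 1901 ± 46.3 CPM at 48 h with the shFabp7 partner, against 211 ± 3.16 CPM at 24 h (SD, n = 3), a 9.01-fold difference (log2 3.17 ± 0.06, adjusted p = 2.6e-30). With the control partner the Gzmb means were 1401 ± 29.4 CPM at 48 h and 177 ± 14.3 CPM at 24 h, a 7.90-fold difference (2.98 ± 0.06, adjusted p = 1.9e-29). Gzmc rose alongside it, by 3.31 ± 0.14 with the shFabp7 partner (adjusted p = 1.9e-20) and by 3.18 ± 0.14 with the control partner (adjusted p = 6.2e-20).

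Prf1 and Serpinb9 also rose with time. The Prf1 difference between the times was 1.19 ± 0.07 with the shFabp7 partner (adjusted p = 2.8e-17) and 0.78 ± 0.07 with the control partner (adjusted p = 1.5e-12). The Serpinb9 difference was 1.46 ± 0.05 with the shFabp7 partner (adjusted p = 5.9e-22) and 0.99 ± 0.05 with the control partner (adjusted p = 1.6e-17). The 2 time effects of a gene differ by its partner effect at 48 h minus that at 24 h, which passed for these 2 genes.

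Gzmk moved the other way. Its mean at 48 h was 0.992 ± 0.139 CPM with the shFabp7 partner, against 3.00 ± 0.421 CPM at 24 h, and it fell by 1.59 ± 0.22 on the log2 scale (adjusted p = 6.8e-08). With the control partner it fell by 1.51 ± 0.20 (adjusted p = 4.8e-08). Srgn fell slightly, by 0.20 ± 0.06 with the shFabp7 partner (adjusted p = 0.0017) and by 0.24 ± 0.06 with the control partner (adjusted p = 3.0e-04), but with libraries scaled by their totals alone neither passed (adjusted p = 0.38 and 0.44). Gzma fell by 0.40 ± 0.16 with the shFabp7 partner (adjusted p = 0.0326). That call was lost without shFabp7 partner replicate 3 at 24 h (adjusted p = 0.189), replicate 2 at 48 h (adjusted p = 0.166) or replicate 3 at 48 h (adjusted p = 0.0631), and with upper-quartile scaling (adjusted p = 0.0553) or library totals (adjusted p = 0.189). With the control partner Gzma did not pass (-0.09 ± 0.16, adjusted p = 0.66).

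Gzmd, Gzme and Gzmf entered the test through their 48 h counts, so a difference in time was built into their selection and is given as a description. Summed over the 3 libraries, Gzmd had 86 counts at 48 h and 0 at 24 h with the shFabp7 partner, at least 23.8-fold higher when 0 is replaced by 3 counts over the group. With the control partner it had 57 counts at 48 h and 1 at 24 h, a ratio of 51.6 with a 95% counting interval of 8.9 to 2075. Gzme had 68 counts at 48 h and 0 at 24 h with the shFabp7 partner, and 45 and 0 with the control partner. By the same replacement it was 18.8-fold and 13.6-fold higher, with 95% counting intervals that start at 14.9 and 10.6.

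Gzmf had 129 counts at 48 h and 7 at 24 h with the shFabp7 partner, a ratio of 15.3 (counting interval 7.22 to 38.8), and 111 and 1 with the control partner, a ratio of 101 (17.7 to 4007). These intervals cover counting error only. Of the other 7 genes, 4 rose and 3 fell with time in the libraries of the shFabp7 partner, against a background of 66.1% of all genes called, 35.9% higher and 30.2% lower. With the control partner 4 rose, 2 fell and 1 did not pass, against 67.7% of all genes, 35.8% higher and 32% lower. The times did not overlap for 6 of these 7 genes with either partner, all but Gzma, against 71.4% of all genes with the shFabp7 partner and 68.6% with the control partner.

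**Figure D3:**
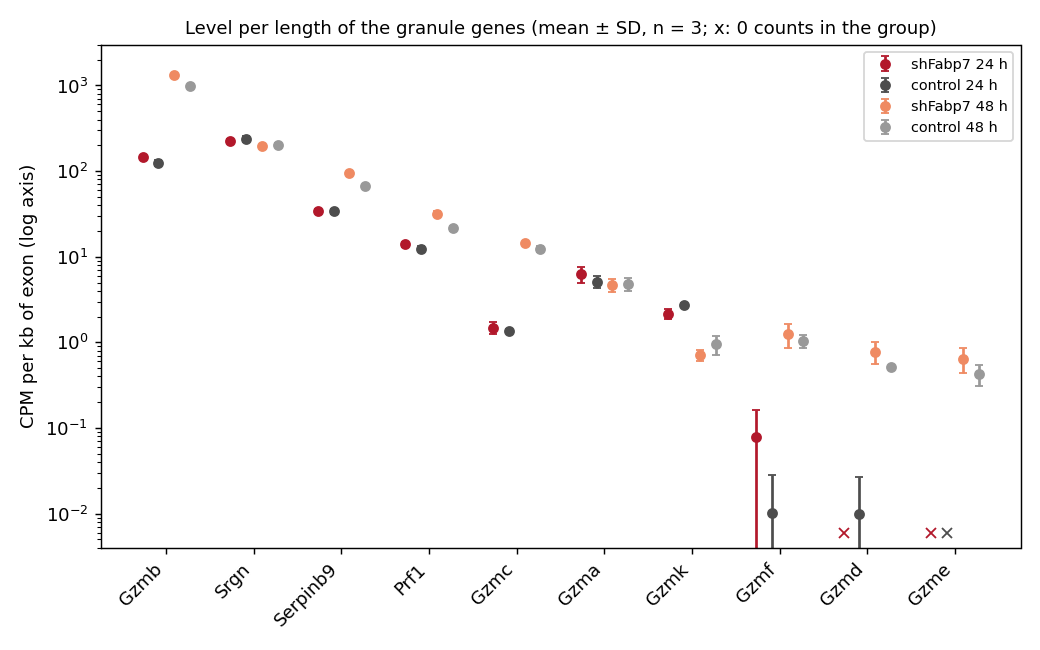
Mean CPM per kilobase of exonic length for the 10 genes in the 4 groups on a log axis, with bars for the SD over 3 libraries. Srgn is the highest of the 10 at 24 h and Gzmb at 48 h. Means of 0 are marked by an x near the foot of the axis, whose height is not a level.

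Levels of different genes were compared per kilobase of exonic length, taken from the GENCODE annotation of GRCm38. At 24 h Srgn was the highest of the 10, with 227 ± 8.94 CPM per kb with the shFabp7 partner and 237 ± 18.4 CPM per kb with the control partner, and Gzmb came next with 147 ± 2.20 and 124 ± 9.98 CPM per kb (SD, n = 3). At 48 h Gzmb was first, with 1323 ± 32.3 CPM per kb with the shFabp7 partner and 976 ± 20.4 CPM per kb with the control partner, above Srgn with 197 ± 1.02 and 201 ± 12 CPM per kb. Serpinb9, Prf1 and Gzmc followed at 48 h with 94.6, 31.8 and 14.7 CPM per kb with the shFabp7 partner, against 67.3, 21.4 and 12.3 CPM per kb with the control partner. The remaining 5 genes were below 5 CPM per kb in both groups at 48 h. Gzma stood first among them with 4.73 ± 0.797 CPM per kb with the shFabp7 partner and 4.83 ± 0.869 CPM per kb with the control partner, while Gzmf, Gzmd, Gzmk and Gzme lay between 0.423 and 1.24 CPM per kb. In that order, the library values of neighbours overlapped with the shFabp7 partner.

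The pool of the 7 granzymes was almost wholly Gzmb, even before the time increase. Gzmm is not among the 7 and is left out of the shares. It had 1.69 CPM per kb with either partner at 24 h. At 48 h it had 0.826 CPM per kb with the shFabp7 partner and 1.19 CPM per kb with the control partner. Per length, Gzmb made up 93.7 ± 0.643% of the 7 granzymes with the shFabp7 partner at 24 h and 93.0 ± 0.291% with the control partner (SD, n = 3). At 48 h its share was 98.3 ± 0.0184% with the shFabp7 partner and 98.0 ± 0.0354% with the control partner. Gzma held 3.97 ± 0.747% and 3.85 ± 0.365% at 24 h, and 0.350 ± 0.0510% and 0.486 ± 0.0968% at 48 h, with the shFabp7 and the control partner in that order. These shares describe messengers and not the amounts of protein in granules.

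Gzmb was more abundant relative to perforin and to its inhibitor at 48 h than at 24 h. The ratio of Gzmb to Prf1 per length was 10.5 ± 0.714 with the shFabp7 partner and 9.92 ± 0.212 with the control partner at 24 h, and 41.7 ± 1.66 and 45.6 ± 1.62 at 48 h. The ratio of Gzmb to Serpinb9 was 4.28 ± 0.234 with the shFabp7 partner and 3.65 ± 0.117 with the control partner at 24 h, and 14 ± 0.302 and 14.5 ± 0.539 at 48 h. At 48 h neither ratio was higher with the shFabp7 partner, although each of the 3 genes was. Differences between the partners in these ratios were not tested.

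Related genes of the same machinery were followed in 4 lists chosen by function. The first list held 14 genes, of which 7 could be tested. They were other granzymes and related serpins, with Cst7, a cystatin gene, and Nkg7, a gene of a granule membrane protein. In this list 1 gene was higher and 1 lower with the shFabp7 partner at 24 h, and 3 were higher and none lower at 48 h (median log2 fold change 0.08, beside 0.01 over all genes). The background for this and the following lists is the same as for the granule genes, with 6.22% of all genes called higher and 4.65% lower at 24 h, and 19.9% higher and 11.6% lower at 48 h. Unadjusted, 3 were higher and 1 was lower at 48 h, and DESeq2 called 3 higher and none lower. Gzmn, Serpinb9d, Serpinb9e, Serpinb9f and Serpinb9g had 0 counts in all 12 libraries.

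Cst7 encodes cystatin F, an inhibitor of the cathepsins that activate granzyme precursors. It had 129, 128 and 129.6 CPM at 48 h with the shFabp7 partner, against 98.2, 99.0 and 93.6 CPM with the control partner. No library of the control partner reached the shFabp7 libraries (0.41 ± 0.05, adjusted p = 9.5e-08), and at 24 h the difference was 0.18 ± 0.05 (adjusted p = 0.0243). The 24 h call was lost without shFabp7 partner replicate 2, control partner replicate 1 or control partner replicate 3, with an adjusted p of up to 0.0725, and with upper-quartile scaling (0.0519) or library totals (0.0886).

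Serpinb9b, a close relative of Serpinb9, went opposite ways at the 2 times. At 24 h it had 5.86, 4.69 and 5.17 CPM with the shFabp7 partner, against 8.30, 6.21 and 7.23 CPM with the control partner, and it was lower (-0.46 ± 0.13, adjusted p = 0.0178). At 48 h it had 17.7, 17.4 and 17.1 CPM with the shFabp7 partner, against 10.0, 13.5 and 13.5 CPM with the control partner, and it was higher (0.49 ± 0.11, adjusted p = 5.1e-04). The groups did not overlap at either time, and the 2 partner effects differed by 0.95 ± 0.17 (adjusted p = 6.9e-04). The 24 h call was lost without shFabp7 partner replicate 2 or 3 or control partner replicate 1, with an adjusted p of up to 0.149. Serpinb9 shares 0.378% of its 50-base stretches with the transcripts of Serpinb9b.

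Serpinb6a, which encodes another serpin of this list, was higher with the shFabp7 partner at 48 h (0.24 ± 0.07, adjusted p = 0.00512), but not with upper-quartile scaling (adjusted p = 0.0743) or library totals (adjusted p = 0.074).

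Of 25 genes for processing and release of granules, 24 were in the table and tested. At 24 h 1 was lower and none higher with the shFabp7 partner (2 higher and 1 lower unadjusted, and the same by DESeq2). At 48 h 6 were higher and 2 lower, which is 8 of 24 against 31.6% of all genes, with a median of 0.06. Stx11, a membrane fusion protein needed for release of granules, had 99.1 ± 2.35 CPM with the shFabp7 partner and 80.2 ± 2.45 CPM with the control partner at 48 h (0.31 ± 0.05, adjusted p = 4.0e-05). Rab7, a small GTPase of late endosomes, had 204 ± 1.46 CPM with the shFabp7 partner and 170.1 ± 3.11 CPM with the control partner at 48 h (0.26 ± 0.05, adjusted p = 4.2e-05). Calr, a calcium-binding chaperone that is also found with perforin in granules, was higher by 0.63 ± 0.05 at 48 h (adjusted p = 1.4e-10).

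Lyst went the other way. It encodes a regulator of lysosome and granule size that is lost in the beige mouse, and it had 359 ± 5.28 CPM with the shFabp7 partner and 440.5 ± 12.8 CPM with the control partner at 48 h (-0.30 ± 0.05, adjusted p = 4.8e-05). It was also lower at 24 h (-0.18 ± 0.05, adjusted p = 0.0238), a call lost with RLE scaling (adjusted p = 0.0511) and without any 24 h library other than control partner replicate 2 (adjusted p of up to 0.238).

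Serglycin carries chondroitin sulfate chains, and 15 genes of their synthesis were tested. At 24 h 2 were higher and none lower with the shFabp7 partner, and at 48 h 2 were higher and 2 lower (median 0.05), beside 10.9% and 31.6% of all genes called in either direction. Unadjusted and by DESeq2 the 24 h count was also 2 higher and none lower. The 24 h calls, Chsy1 and Chpf, were lost without shFabp7 partner replicate 1 or control partner replicate 1, and that of Chsy1 also without shFabp7 partner replicate 2 (adjusted p of up to 0.117) and with library totals (0.0635). Chsy1, a chondroitin synthase, had 78.2 ± 0.818 CPM with the shFabp7 partner and 59.7 ± 2.44 CPM with the control partner at 48 h (0.39 ± 0.06, adjusted p = 1.9e-06). Chpf, the factor that acts with it, had 51.6 ± 2.74 CPM with the shFabp7 partner and 38.8 ± 3.00 CPM with the control partner (0.41 ± 0.06, adjusted p = 4.4e-06). Xylt1 and Xylt2, the enzymes that add the first sugar to the core protein, were lower at 48 h (-0.36 ± 0.10, adjusted p = 0.00609, and -0.18 ± 0.06, adjusted p = 0.0201), and the Xylt2 call was lost without shFabp7 partner replicate 1 or 2 or control partner replicate 2 at 48 h (adjusted p of up to 0.0843). None of the 15 passed the test of the difference between times (2 larger and 2 smaller unadjusted, none by DESeq2).

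Of 12 transcription factors known from cytotoxic or effector T cells, 1 was higher and 1 lower with the shFabp7 partner at 24 h. The lower one, Stat4, had 60.1 to 65.3 CPM with the shFabp7 partner and 69.0 to 81.6 CPM with the control partner. The higher one, Bhlhe40, was no longer called without shFabp7 partner replicate 1 or 2 or control partner replicate 1 at 24 h (adjusted p of up to 0.171), with library totals (0.0774) or with the 24 h groups alone (0.0556). At 48 h 6 were higher and none was lower (6 and 1 unadjusted, 6 and none by DESeq2), against 19.9% of all genes higher and 11.6% lower, with a median of 0.17. Nfil3 had 109.8 ± 5.63 CPM with the shFabp7 partner and 78.4 ± 5.99 CPM with the control partner at 48 h (0.49 ± 0.06, adjusted p = 1.6e-07). Irf4, which is induced by T cell receptor signals, had 726 ± 17 CPM with the shFabp7 partner and 542 ± 47.2 CPM with the control partner (0.42 ± 0.06, adjusted p = 8.0e-07).

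Bhlhe40 had 520.2 ± 10.7 CPM with the shFabp7 partner and 389.98 ± 18 CPM with the control partner at 48 h (0.42 ± 0.06, adjusted p = 1.1e-06). Tbx21, the gene of the T-box factor T-bet that is known to act on Gzmb and Prf1, had 165 ± 6.70 CPM with the shFabp7 partner and 132 ± 12.9 CPM with the control partner (0.32 ± 0.06, adjusted p = 3.8e-05). Eomes, also of this list, had 140 ± 2.10 and 150 ± 8.63 CPM, with overlap. Between 24 and 48 h mean Tbx21 fell from 220 to 165 and from 204 to 132 CPM, and Irf4 from 1132 to 726 and from 1124 to 542 CPM. Bhlhe40 rose from 192 to 520 and from 166 to 390 CPM, and Nfil3 from 39.9 to 110 and from 35.3 to 78.4 CPM. The part of these factors in the granule gene results was not tested.

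**Figure D4:**
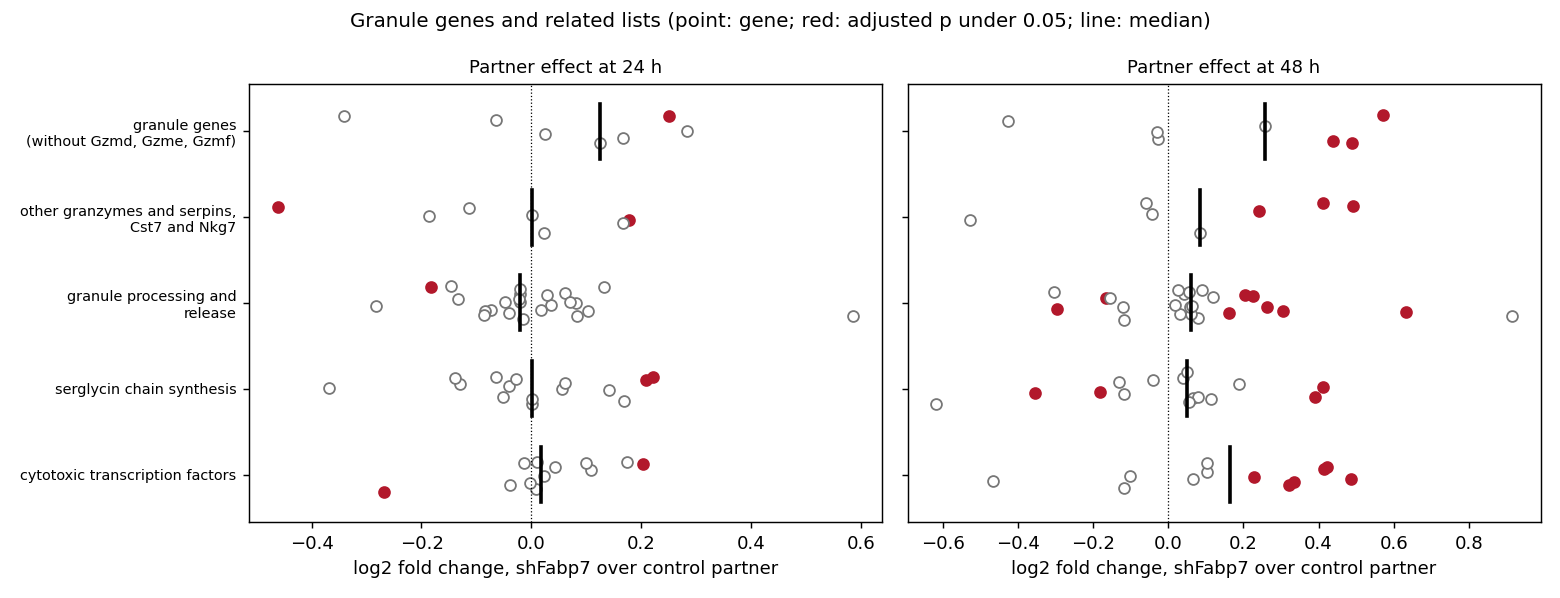
Log2 fold changes of the shFabp7 over the control partner for the single genes of each list at 24 h and at 48 h, with 1 point per gene and a bar for the median. At 48 h the medians are 0.08 for the list of other granzymes, serpins, Cst7 and Nkg7, 0.06 for granule processing, 0.05 for chain synthesis and 0.17 for the transcription factors, and single genes lie on both sides of 0.

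The profiles most like that of Gzmb over the 12 libraries, by the root mean square difference of centred log2 CPM among 8787 genes, were those of Melk (0.111), Diaph3 (0.125) and Kif22 (0.131). Those most like Prf1 were Tagln2 (0.0962), Abcb1b (0.104) and Hook2 (0.115). The 12 libraries fall into the same 2 times and 2 partners for every gene, and the likeness is given as a description.

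**Figure D5:**
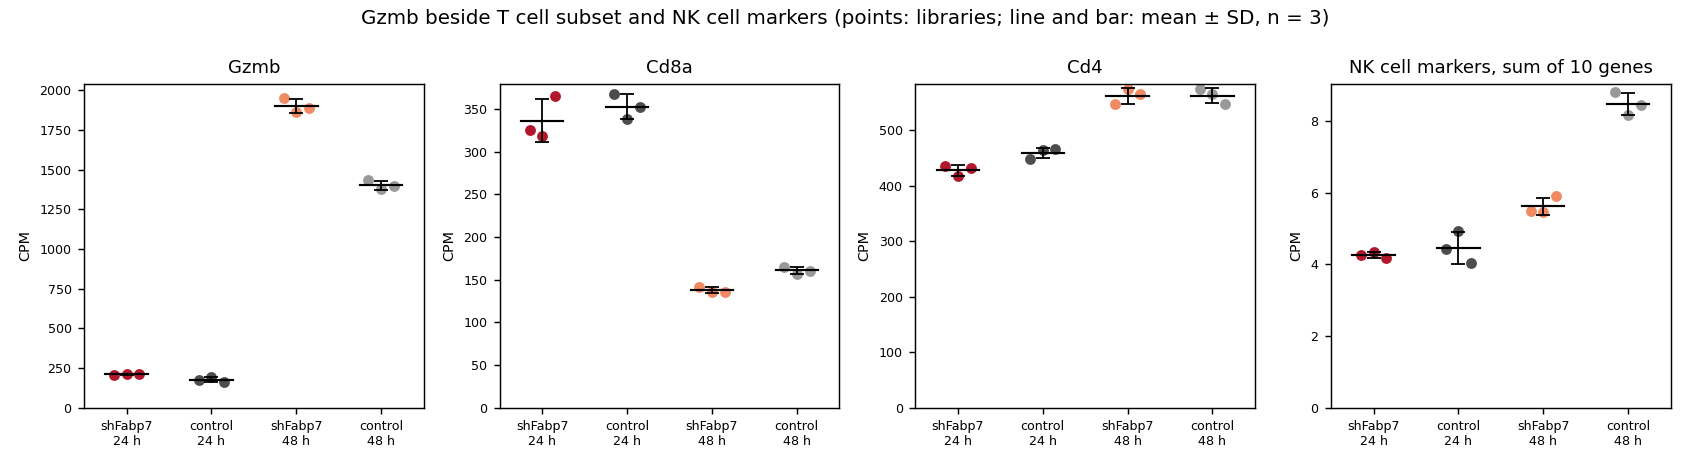
CPM per library of Gzmb, Cd8a, Cd4 and the sum of 10 NK cell markers in the 4 groups, with points for libraries and bars for group means. At 48 h Gzmb is higher with the shFabp7 partner while Cd8a and the NK cell sum are lower. The points of Cd4, the CD4 marker drawn, interleave.

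Markers of the cells that carry granules were set beside these results. The T cell markers summed to 2202 to 3025 CPM in the 12 libraries, and Cd3e at 48 h had 260.0, 265 and 272 CPM with the shFabp7 partner, against 271, 268 and 254 CPM with the control partner. The 9 summed to 2213 to 2268 CPM with the shFabp7 partner and 2202 to 2270 CPM with the control partner at 48 h, yet single markers moved both ways. Cd5 (0.23 ± 0.05, adjusted p = 5.3e-04) and Cd28 (0.16 ± 0.05, adjusted p = 0.0209) were higher with the shFabp7 partner at 48 h. Cd3d (-0.18 ± 0.05, adjusted p = 0.0087), Cd3g (-0.20 ± 0.05, adjusted p = 0.00281) and Cd247 (-0.17 ± 0.05, adjusted p = 0.0112), which encode subunits of the T cell receptor complex, were lower. These are 5 of 9 called, against 31.6% of all genes. Cd8a, a co-receptor subunit of cytotoxic T cells, had 142, 135 and 136 CPM at 48 h with the shFabp7 partner, against 165, 157 and 161 CPM with the control partner. It was lower in every library (-0.23 ± 0.05, adjusted p = 0.00143), and the 2 CD8 markers summed to 228 to 231 CPM with the shFabp7 partner and 257 to 268 CPM with the control partner. Cd8b1, the gene of the other CD8 subunit, was -0.13 ± 0.05 on the log2 scale (adjusted p = 0.0496), a call lost without any single 48 h library (adjusted p of up to 0.166), with RLE scaling (0.0795), with DESeq2 (0.0604) and with the replicate block (0.064). Cd4 had 561 ± 14.1 CPM with the shFabp7 partner and 562 ± 13.2 CPM with the control partner at 48 h (adjusted p = 0.986), and the 3 CD4 markers summed to 713 to 748 CPM with the shFabp7 partner and 710.3 to 734 CPM with the control partner. Of these 3, Cd40lg, the gene of a ligand that activated CD4 T cells show to B cells, was higher with the shFabp7 partner. It had 49.0 to 53.6 CPM with the shFabp7 partner and 37.1 to 40.2 CPM with the control partner at 48 h (0.40 ± 0.07, adjusted p = 2.0e-05), and 65.6 to 67.3 and 47.0 to 59.2 CPM at 24 h (0.28 ± 0.07, adjusted p = 0.00572). Zbtb7b, the third, did not pass at 48 h (adjusted p = 0.78).

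Per length, the ratio of Gzmb to Cd8a at 48 h was 35.0 ± 0.175 with the shFabp7 partner and 22.1 ± 0.163 with the control partner, and at 24 h it was 1.59 ± 0.12 and 1.28 ± 0.146. Gzmb, Prf1 and Serpinb9 were thus higher at 48 h with the shFabp7 partner, in libraries in which Cd8a was lower. Between 24 and 48 h mean Cd8a fell from 336 to 138 CPM with the shFabp7 partner and from 353 to 161 CPM with the control partner. Cd8b1 fell from 166 to 91.7 and from 175 to 100 CPM. Cd4 rose from 428 to 561 and from 459 to 562 CPM, while Cd40lg fell from 66.7 to 50.7 and from 54.8 to 38.4 CPM. The ratios of Gzmb to Cd8a were not tested between partners, and the part of these and the following markers in the granule gene results was not tested.

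NK cells also express granzymes and perforin. Their 10 markers summed to 5.46 to 5.90 CPM at 48 h with the shFabp7 partner, against 8.18 to 8.80 CPM with the control partner, and to 4.18 to 4.36 and 4.04 to 4.93 CPM at 24 h. None of the 10 was at 0 in all libraries, and Ncr1, a defining marker, was at 0.73 CPM or below in each. At 48 h 3 of the 7 tested NK markers were lower and none was higher with the shFabp7 partner, against 11.6% of all genes lower and 19.9% higher. The widest gaps in mean CPM were in Tyrobp (0.996 with the shFabp7 and 1.93 with the control partner) and Fcer1g (1.41 and 2.31). Klre1 (0.483 and 0.556) and Klra4 (0.203 and 0.217) differed little, and Klri2 (0.0905 and 0.0792) and Klra8 (0.0281 and 0.00858) leaned the other way. Which cells the markers came from was not tested.

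Mast cells and basophils, which carry granule proteases and serglycin, had 10 markers that summed to 5.04 to 5.52 CPM with the shFabp7 partner and 6.48 to 7.90 CPM with the control partner at 48 h, with Mcpt4 at 0. Neutrophil markers summed to 3.04 to 4.05 CPM with the shFabp7 partner and 5.02 to 9.68 CPM with the control partner at 48 h, with Retnlg at 0. Monocyte and macrophage markers summed to 13.8 to 15.6 and 14.3 to 17.3 CPM, dendritic cell markers to 23.9 to 25.3 and 23.7 to 27.8 CPM, and B cell markers to 19.7 to 20.9 and 20.2 to 23.9 CPM, with the shFabp7 and the control partner in that order. No sum of another cell type was higher with the shFabp7 partner beyond the range of the control partner at 48 h.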

How the data were processed

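The authors deposited raw counts per gene symbol for the 12 libraries, with 1 column per library and no pooling. The tools listed are HTSeq 0.6.1p1, TopHat2 2.0.13 and CASAVA 1.8.2, with build GRCm39, per the submitters' processing notes. The sources used here give no tool order or settings, strand mode, read length or annotation release. Reads of overlapping, antisense or near-identical genes could therefore be misassigned.

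Groups were taken from the labels. Genes were filtered by group (minimum count 10, minimum total 15), libraries were scaled by TMM, and edgeR 4.0.16 (quasi-likelihood, robust, R 4.3.3) was fitted to all 12 libraries with 1 coefficient per group, leaving 8 residual degrees of freedom. Adjusted p-values are Benjamini-Hochberg over 16945 genes. The 5 comparisons were the shFabp7 over the control partner at each time, the interaction of partner and time, and 48 h over 24 h with each partner. SE is the log2 fold change divided by the root of F, and intervals are 1.96 SE to each side.

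Alternatives were DESeq2 1.42.0, RLE, upper-quartile and total-count scaling, testing without a filter or with at least 1 CPM in 3 libraries and 100 counts in total, fitting only the groups compared, blocking on replicate number, and omitting each library. Their use for related genes was chosen after seeing the data. A count of 0 allows up to 3 counts. The fit was tested on simulated data.

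All 10 members are described whether or not they passed. From each related list, up to 4 genes past the threshold in either partner effect were named, by smallest adjusted p, and for Gzmb and Prf1 the 3 genes of nearest profile among those with a mean of at least 10 CPM. Stat4 and Eomes were named in addition to these. Members and lists were chosen with earlier results of these data known. The reference was of GRCm38, not the authors' build, so it served by symbol for exonic lengths, gene order, shared transcript stretches and RefSeq promoters. All 10 genes matched.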

Additional observations from a re-analysis of the deposited data

Results flagged for a closer look

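The partner effect differed between 24 and 48 h, by the test of the difference itself, for 2 of the 10 granule genes. The effect of the shFabp7 over the control partner was larger at 48 h by 0.40 ± 0.09 (log2, adjusted p = 0.00762) for Prf1 and by 0.47 ± 0.08 (adjusted p = 3.5e-04) for Serpinb9. The Prf1 call was lost without shFabp7 partner replicate 1 or 2 or control partner replicate 2 at 24 h (adjusted p of up to 0.094). Serpinb9 passed in every alternative run.

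Over all genes tested, 5.6% passed this test, and 4.43% with a larger effect at 48 h. Among the related genes named by smallest adjusted p, it passed for 6, each with a larger or more positive effect at 48 h. The genes so named had been chosen because a partner effect passed in them. Over all tested genes of the related lists, in the order given above, this test passed for 3 of 7, 1 of 24, 0 of 15 and 2 of 12. It gave 0.95 ± 0.17 (adjusted p = 6.9e-04) for Serpinb9b, 0.55 ± 0.08 (adjusted p = 4.8e-05) for Calr and 0.41 ± 0.08 (adjusted p = 0.00249) for Irf4, and these 3 passed in all 19 alternatives run. It gave 0.43 ± 0.11 (adjusted p = 0.0127) for Serpinb6a, 0.31 ± 0.09 (adjusted p = 0.0357) for Nfil3 and 0.23 ± 0.07 (adjusted p = 0.0482) for Cst7. These calls were lost in 5, 13 and 17 of 19 alternatives, with an adjusted p of up to 0.119 for Serpinb6a without control partner replicate 2 at 24 h, 0.23 for Nfil3 without the same library and 0.284 for Cst7 without shFabp7 partner replicate 1 at 24 h.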

How the results depend on the processing

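Of the 10 genes, DESeq2 called 2 at 24 h in place of 1. Leaving out a library gave 1 to 2 at 24 h, 3 to 4 at 48 h and 1 to 2 for the difference between times. The replicate numbers did not pair the libraries (correlations of same-numbered libraries -0.067 to 0.036), and with them as a replicate block 1, 3 and 2 genes passed for the partner effects and their difference. For time, 7 and 6 of the 7 genes other than Gzmd, Gzme and Gzmf passed with the replicate block, with the shFabp7 and the control partner. The block changed none of these calls. Over all genes, the 1842 calls at 24 h became 1045 without shFabp7 partner replicate 1 and 949 without control partner replicate 1 at 24 h. The 949 calls for the difference became 319 without shFabp7 partner replicate 2 at 24 h and 1680 without control partner replicate 1 at 48 h, and the calls higher at 48 h were 79% of the whole with TMM, 48.9% with upper-quartile scaling and 61.9% with library totals. For time, 54.3% (shFabp7 partner) and 52.8% (control partner) of the calls were higher, against 66.4% and 67.2% with library totals, which moved the median log2 change by 0.15 and 0.19.

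The direction changed for values near 0 that had not passed. Serpinb9 at 24 h became -0.00027 with upper-quartile scaling and -0.018 with library totals (leave-one-out range -0.00596 to 0.0863). The Srgn difference became -0.026, -0.0065 and -0.0049 with upper-quartile scaling, library totals and no filter (leave-one-out -0.0551 to 0.0769). Gzma over time with the control partner became 0.017 and 0.11 with upper-quartile scaling and library totals (leave-one-out -0.21 to 0.0444). Leaving out a library also crossed 0 for Gzma at 48 h (-0.16 to 0.10), Srgn at 48 h (-0.074 to 0.0125), and the Gzmc (-0.0463 to 0.20) and Gzmk (-0.27 to 0.094) differences. The cause was not tested. Gzmb, Prf1 and Serpinb9 at 48 h passed in every alternative run, at 0.35 to 0.46, 0.48 to 0.61 and 0.40 to 0.51. Depth limits Gzmd, Gzme and Gzmf, with at most 53 counts in any library.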
